A study of Caenorhabditis elegans with 4 samples.

Results

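Chromosome V carried 692 of the 4794 LIN-35::GFP binding sites in the combined peak list of fed first-stage *Caenorhabditis elegans* larvae. The members are every peak of that list assigned to chromosome V, with no selection by score. The chromosome itself was chosen with earlier results of these data known. LIN-35 is the worm member of the retinoblastoma protein family, which restrains transcription of cell cycle and other genes. It acts in the DREAM complex, where it is joined to E2F and DP proteins and to MuvB proteins. Loss of LIN-35 lets germline genes be expressed in somatic cells of larvae. Chromosome V is the longest worm chromosome, and like the other autosomes it has a central region of low recombination between arms that recombine more and hold more repeats. It is known for large families of nematode chemoreceptor genes.

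The larvae were hermaphrodites of strain YL409, grown at 20 °C on bacteria and fixed in 2% formaldehyde. The strain carries the mutation *unc-119(ed3)* III and the transgene vrIs60, which holds an *unc-119* (+) rescue and *lin-35* fused to GFP and 3xFlag, driven by the *lin-35* promoter and followed by the *dpl-1* 3′-UTR. All 4 samples share this genotype, stage and fixation. They are 2 immunoprecipitations with antibodies against GFP and 2 inputs, and no untagged or unfed control was compared. The strain was not outcrossed, and the labels do not say whether the replicates came from separate cultures. Peaks were deposited for the immunoprecipitations, with 26583 in replicate 1, 28727 in replicate 2 and 4794 in the combined list. The read depth behind them is unknown, since the lists give scores and not reads. Positions are in WormBase WS220, and the genes at them were not analysed here. Peaks are given by their place in the combined list, ordered by score and, within ties, by the authors' peak number. Since 91.2% of combined peaks tie at the highest score, all of the best places rest on peak number alone.

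Sites were sparse on chromosome V relative to its size. It spanned 20.9% of the summed extent of the nuclear chromosomes but held 14.4% of the combined peaks (Wilson 95% interval 13.5 to 15.5%). Its 692 peaks lay over 20.9 Mb at 33.1 per Mb, or 1 per 30.2 kb, whereas the other 5 nuclear chromosomes together had 51.7 per Mb, or 1 per 19.3 kb. The ratio of the densities was 0.640 (0.590 to 0.693 by counting error, which treats peaks as independent). Against single chromosomes the ratio was lowest against III (0.491, 0.445 to 0.542) and I (0.524, 0.475 to 0.577). It was 0.671 against II (0.605 to 0.744) and 0.719 against IV (0.649 to 0.795). Against X, the next sparsest, it was 0.881, with a counting interval of 0.792 to 0.980 that takes no account of clustered sites. No p-value was computed for these ratios, since peaks are not replicates and 2 immunoprecipitations allow no test over samples.

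Both replicates gave the lower density on their own. With each replicate reduced to as many top nuclear peaks as the combined list holds, chromosome V had 35.9 peaks per Mb in replicate 1 against 51.0 on the other chromosomes, a ratio of 0.705 (0.653 to 0.762). In replicate 2 it had 33.8 against 51.5 per Mb, a ratio of 0.657 (0.607 to 0.711). Among these top peaks the difference from X alone was not seen in both replicates: V and X each had 35.9 per Mb in replicate 1, and 33.8 and 37.8 in replicate 2. Over all deposited peaks, most of them outside the combined list, the ratios were nearer to 1. The 4997 peaks of replicate 1 on V gave 0.879 (0.852 to 0.906), and the 5193 of replicate 2 gave 0.837 (0.813 to 0.863). Against X alone, all deposited peaks gave 0.938 (0.901 to 0.976) in replicate 1 and 0.912 (0.877 to 0.949) in replicate 2.

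Chromosome V was divided into 3 equal parts of its extent. The middle part held the most sites and the right part the fewest. The left part, up to 6974221, carried 219 peaks or 31.4 per Mb. The middle part, which ends at 13948442, carried 312 peaks or 44.7 per Mb. The right part carried 161 peaks or 23.1 per Mb. The middle was 1.42 times as dense as the left (counting interval 1.20 to 1.69) and 1.94 times as dense as the right (1.60 to 2.34). The left was 1.36 times as dense as the right (1.11 to 1.67).

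Each replicate placed the parts in the same order. The top peaks of replicate 1 gave 34.0, 49.9 and 23.9 per Mb in the left, middle and right parts. Those of replicate 2 gave 32.0, 45.5 and 24.1 per Mb. In all 3 lists the middle was highest and the right lowest. The middle to outer ratio was 1.64 in the combined list (1.41 to 1.91), 1.72 in replicate 1 and 1.62 in replicate 2.

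**Figure D1:**
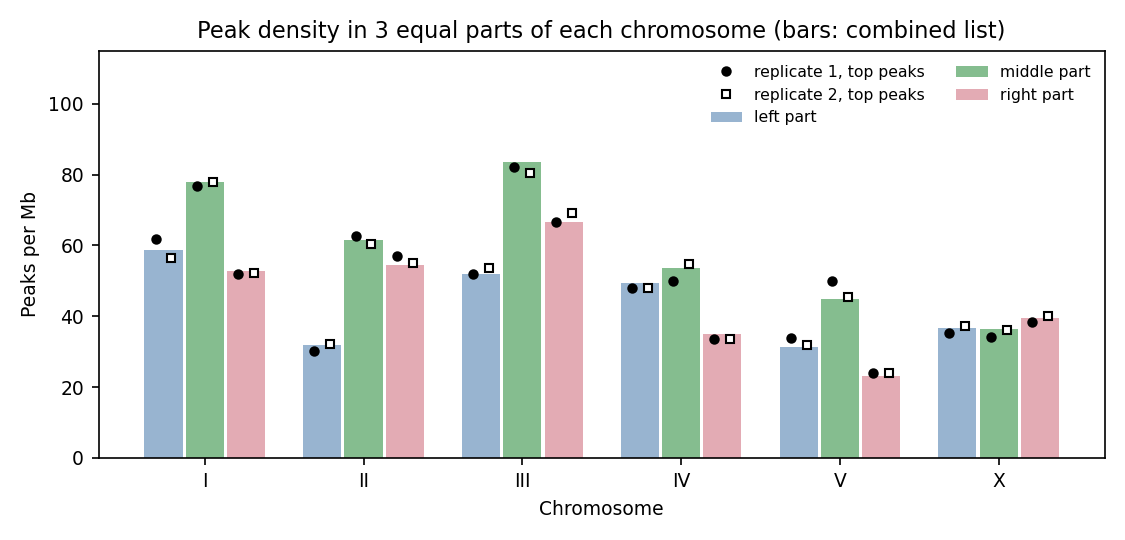
Peaks per Mb in the left, middle and right part of each chromosome. Bars are the combined list, black circles and white squares the top peaks of replicate 1 and replicate 2; on chromosome V the middle part reaches 44.7 and the right part 23.1 per Mb, the lowest of the 18 bars.

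The right part of V differed most from the rest of the genome. Its density was 0.475 of that in the right parts of the other chromosomes (counting interval 0.403 to 0.559). The left part stood at 0.692 of the other left parts (0.599 to 0.799) and the middle at 0.732 of the other middle parts (0.648 to 0.826). The intervals of the right and left parts do not overlap, but this difference was not tested. The order did not hold against each single chromosome. Against IV the ratio was 0.636 on the left (0.533 to 0.758) and 0.660 on the right (0.537 to 0.811). The left part of V was about as dense as that of II (ratio 0.981, 0.801 to 1.20). The middle part of V was denser than that of X (ratio 1.23, 1.03 to 1.46). Among the top peaks this ratio was 1.47 in replicate 1 and 1.26 in replicate 2. Left and right were not ordered alike on all chromosomes. The left to right ratio was 1.41 on IV (1.18 to 1.69) and 1.11 on I (0.943 to 1.31), but 0.588 on II (0.485 to 0.714), 0.778 on III (0.657 to 0.921) and 0.923 on X (0.767 to 1.11). The middle to outer ratio of the other autosomes ran from 1.27 on IV to 1.42 on II, and on X it was 0.956 (0.812 to 1.12).

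Within the parts the sites rose and fell along the chromosome. The 20 whole windows of 1 Mb on V held 32.8 ± 14.9 combined peaks (SD over windows), from 7 to 55. The other chromosomes had lowest windows of 20 to 37 peaks. In the left part the fullest window was 6 to 7 Mb with 50 peaks, and the emptiest were 2 to 3 Mb and 4 to 5 Mb with 23 each. In the middle part, 10 to 11 Mb and 12 to 13 Mb held 55 each, whereas 7 to 8 Mb and 8 to 9 Mb held 29 each. In the right part, 14 to 15 Mb still held 47, and 17 to 18 Mb held 7. The middle part therefore had a sparse beginning and a dense remainder, and its density carried over into the first Mb of the right part.

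The 4 sparsest of the 97 whole windows in the genome were neighbours on V. From 16 Mb to 20 Mb they held 15, 7, 15 and 13 combined peaks. The top peaks of replicate 1 numbered 16, 10, 17 and 17 there, and those of replicate 2 numbered 15, 7, 15 and 15. Beyond 20 Mb the density rose again, with 36 peaks in the last 0.923 Mb, or 39.0 per Mb. No window of V was among the 20 fullest of the genome, and its fullest shared rank 29.

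**Figure D2:**
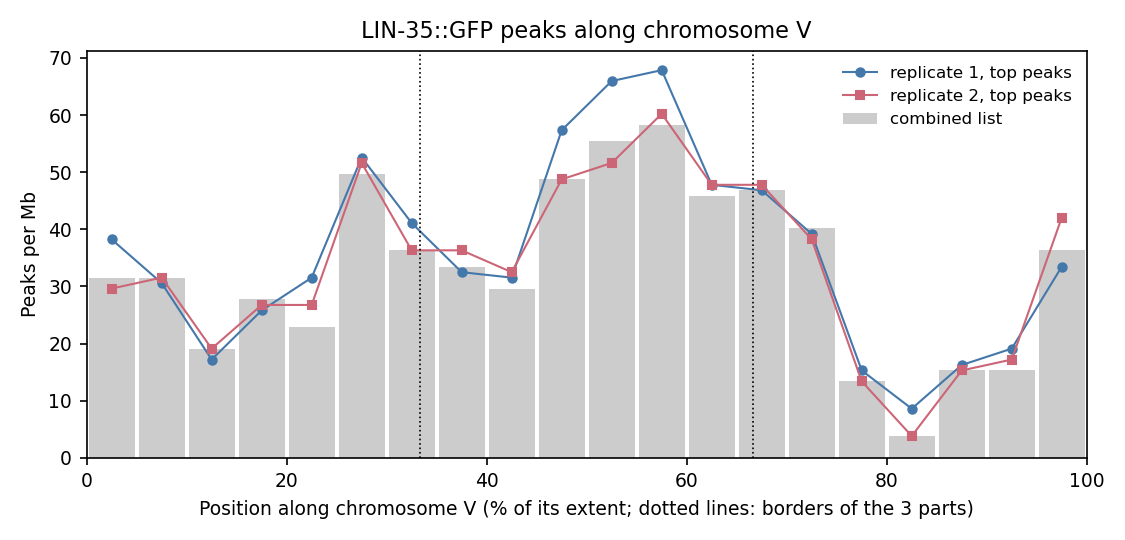
Peaks per Mb in 20 equal bins along chromosome V, from its left end (0%) to its right end (100%). Bars are the combined list, circles and squares the top peaks of replicate 1 and replicate 2; all 3 reach their highest value in bin 12, at 58.3, 67.9 and 60.2 per Mb, and their lowest in bin 17, at 3.82, 8.60 and 3.82 per Mb.

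Chromosome V held more long stretches without a combined peak than any other chromosome. A stretch runs from the end of a peak to the start of the next and was called long at 100 kb or more. Of the 691 stretches on V 39 were long (5.64%), against 2.30% of all stretches in the genome. There were 23 on IV, 23 on X, 16 on II, 6 on I and 3 on III. Those on V added up to 7.10 Mb, or 33.9% of its extent, and on the other chromosomes the share ran from 2.50% on III to 19.3% on IV. The 5 longest stretches of the genome were all on V, as were 7 of the longest 10 and 11 of the longest 20. A count of long stretches depends on peak density, which was lowest on V in the combined list.

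The right part held the most of them. It had 19, with 3.85 Mb or 55.1% of its length, against 13 in the left part (32.1%) and 7 in the middle part (14.6%). The longest ran from 16965967 to 17538509, over 573 kb. The next ran from 18087084 to 18533658, over 447 kb, and another from 17538834 to 17857911, over 319 kb. The first and the last of these are parted by a single peak, at 17538510 to 17538833, with place 2155. The longest in the left part ran from 2281896 to 2600564, over 319 kb, and the longest in the middle part from 7237423 to 7435028, over 198 kb. For comparison, the longest stretch elsewhere was 275 kb, in the right part of IV.

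**Figure D3:**
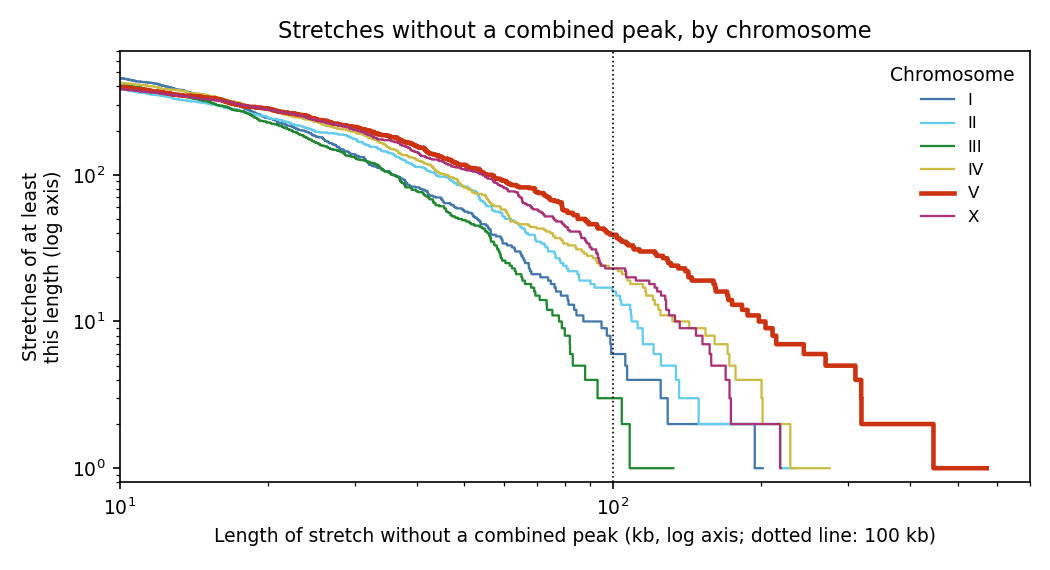
Number of stretches without a combined peak that are at least as long as the value on the x axis, for each chromosome, with both axes logarithmic. Chromosome V (thick red line) has 39 stretches past 100 kb and its 5 longest are longer than any on the other chromosomes, where the longest is 275 kb.

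Outside the long stretches the parts of V were nearly alike. The rest of the left part had 46.2 combined peaks per Mb, the rest of the middle 52.4 and the rest of the right 51.5. Over the whole chromosome it was 50.1 per Mb, against 59.1 on the other chromosomes treated in the same way, a ratio of 0.846 in place of 0.640. Leaving out empty sequence must raise a density, and it raises it most where most is left out, so these values are a description and no test of the stretches. Single chromosomes outside their long stretches ran from 46.0 per Mb on X to 69.1 on III.

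The long stretches were not empty in the replicate lists. They held 1203 peaks of replicate 1 on V, or 169 per Mb, and 1002 of replicate 2, or 141 per Mb. In the rest of the chromosome, peaks outside the combined list had densities of 226 and 250 per Mb. This contrast was not particular to V. On the other chromosomes the densities were 178 and 153 per Mb inside long stretches, and 227 and 254 per Mb outside them. The best replicate peaks inside long stretches of V were numbered 2934 (replicate 1) and 4036 (replicate 2), where number 1 is the best of a list. In long stretches of the other chromosomes they were numbered 2645 and 3765. The lack of better numbers partly follows from the definition, since the stretches hold no combined peak and that list comes from these replicates. Of the replicate 1 peaks inside, 17.5% overlapped replicate 2 (Wilson 95% interval 15.5 to 19.8%), against 30.3% (28.7 to 31.9%) of those outside the stretches that are likewise absent from the combined list. For replicate 2 the shares were 20.8% (18.4 to 23.4%) and 27.8% (26.4 to 29.4%). The other chromosomes had shares of 19.6% inside and 31.1% outside for replicate 1, and 23.3% and 28.1% for replicate 2. Denser peaks overlap more often by position alone, and how far this accounts for the difference was not tested.

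The replicates differed in how many peaks they held in the right part. The 573 kb stretch held 91 peaks of replicate 1 and 44 of replicate 2, and 3 of the 91 overlapped replicate 2. The 447 kb stretch held 62 and 32 peaks. In all long stretches of the right part replicate 1 had 623 peaks and replicate 2 had 417, whereas in the left part the counts were 370 and 376. Over the whole right part replicate 1 had 201 peaks per Mb and replicate 2 had 176, although replicate 2 was the longer list. This was not particular to V. The right part of IV had 227 and 200 peaks per Mb, and its long stretches held 316 and 183 peaks.

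The longest stretch bare in every list lay on the left of V. No peak of the combined list or of either replicate lay between 2345832 and 2567055, over 221 kb. Elsewhere the longest such stretch was 93.8 kb on X, 59.7 kb on I and 51.9 kb on III, and under 40 kb on II and IV (38.2 and 38.5 kb). The next on V was 88.3 kb in the middle part, from 8811879 to 8900134, followed by 40.6 kb in the left part, from 1966226 to 2006867. In the sparse right part the longest was 28.0 kb, from 19323320 to 19351363. Input coverage and the repeat content of these regions were not used here, so their part was not tested.

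Although sparse, the sites on V were spread over the whole ranked list. Peaks of V had a median place of 2380 (binomial 95% interval 2161 to 2563), against 2399 on the other chromosomes. Medians ran from 2156 on I to 2439 on IV among the other autosomes, and X stood at 2993. The replicates fell on different sides. Among the top peaks of replicate 1 the median place of V was 2571.5 (2441 to 2757), later in the list than the 2362.5 of the other chromosomes (2290 to 2430). Among those of replicate 2 it was 2296.5 (2182 to 2448), against 2416.5 (2342 to 2492). V held 72 of the first 479 peaks (15.0%) and 63 of the last 479 (13.2%). Over 10 equal slices of the list its share stayed between 13.1% and 15.9%, and each of the 10 Wilson intervals included its share of the whole list, 14.4%.

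**Figure D4:**
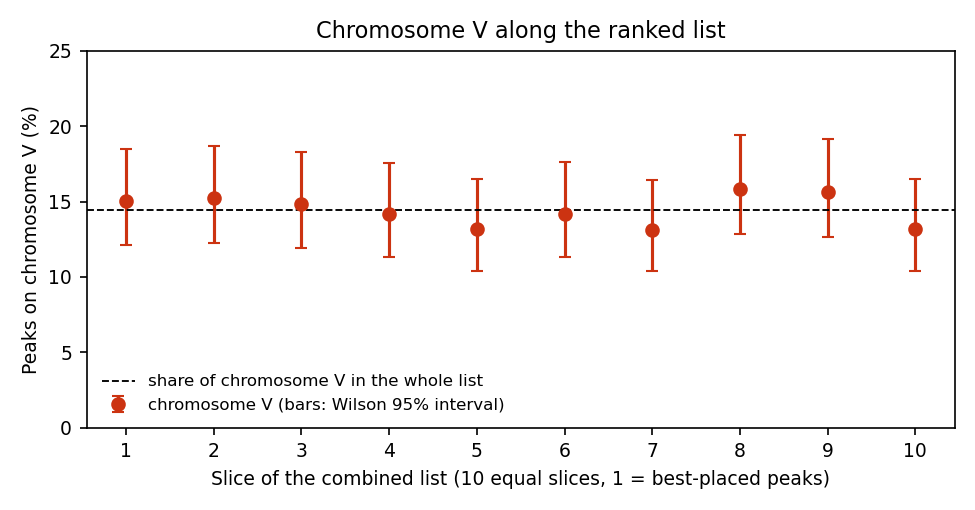
Share of chromosome V among the peaks of each of 10 equal slices of the combined list, from the best-placed (1) to the last (10), with Wilson 95% intervals. The dashed line is the share in the whole list, 14.4%, and all 10 intervals include it.

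V also had its share of the best-placed sites. It held 19 of the best 100 combined peaks, so that 2.75% of V peaks (Wilson 95% interval 1.76 to 4.25%) were among them, against 2.09% of all combined peaks. Of the best 500 there were 78, or 11.3% of V peaks (9.13 to 13.8%) against 10.4% of all. The best 100 of replicate 1 held 17 peaks on V and those of replicate 2 held 20. The best 500 held 79 and 76. Chromosome I placed 19, II 22, III 25, IV 15 and X 0 in the best 100. Density and place in the list were thus not ordered alike: V and X had the lowest densities, but 11.3% of V peaks and 1.20% of X peaks reached the best 500.

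The best-placed sites were spread over all parts of V. The left part held 5 of the 19 peaks among the best 100, the middle 8 and the right 6. The right part, with the fewest sites, had 3.73% of its peaks among the best 100 (Wilson 95% interval 1.72 to 7.89%), the middle 2.56% (1.30 to 4.98%) and the left 2.28% (0.979 to 5.23%). These intervals overlap. The median place was 2734 in the left part (binomial 95% interval 2352 to 3145), 2236 in the middle (2001 to 2483) and 2224 in the right (1857 to 2783). Each part also reached the end of the list, with last-placed sites at 5847928 on the left (place 4794), 11080464 in the middle (place 4782) and 14930188 on the right (place 4772).

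The best site of V, with place 3 in the genome, lay in the middle part at 10897200 to 10897533. It overlapped the peak numbered 5 in replicate 1 and the peak numbered 3 in replicate 2, whose midpoints were 7.5 bp apart. The best of the left part lay at 5939538 to 5939824 with place 18, and its replicate peaks were numbered 25 and 15. The best of the right part lay at 16965667 to 16965966 with place 19, and its replicate peaks were numbered 24 and 16. A further site of the right part, at 15189599 to 15189886, followed with place 23. All 4 stood in the first 34 peaks of both replicates.

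The other 6 of the 10 best sites had places 42 to 58. Those of the middle part started at 11521457, 9346857, 9175242 and 12343605, and the others at 14355792 in the right and 5917753 in the left part. Their replicate numbers were between 28 and 85 in replicate 1 and between 42 and 90 in replicate 2. Of these, the site at 12343605 differed most between replicates, with number 28 in replicate 1 and 90 in replicate 2. The midpoints of the replicate peaks lay 0 to 11 bp apart over all 10 sites.

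The peaks that border long stretches on V had places throughout the list. Of these 71 peaks 2 were among the best 100 (2.82%, Wilson 95% interval 0.776 to 9.70%), against 2.09% of all combined peaks. Among the best 500 there were 6 (8.45%, 3.93 to 17.2%), against 10.4% of all. The median place of the 71 peaks was 2114. The peaks at the borders of the 3 longest stretches had places 19, 116, 871, 1857 and 2155. The peak with place 19, at 16965667, was the last before the 573 kb stretch, and on its other side the nearest combined peak lay 171 kb away. The 447 kb stretch began after the peak at 18086807 to 18087083, with place 116 and replicate numbers 147 and 86, and ended at 18533659 with place 1857. The 319 kb stretch of the right part ended at 17857912 to 17858082 with place 871. Of the 7 combined peaks in the emptiest window, 17 to 18 Mb, that at 17921435 to 17921716 had place 100, with numbers 164 and 65 in the replicates.

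Chromosome V held 7 of the 13 combined peaks in the genome with no neighbour within 100 kb on either side by midpoint. They made up 1.01% of V peaks, against 0.271% of all peaks. There were 2 each on II, IV and X and 0 on I and III. This measure was chosen after the stretches had been seen, and it partly follows from them. In the right part these sites were at 16965667 (place 19), 15766228 (place 59), 15873797 (place 2031) and 17538510 (place 2155). The left part had sites at 2877421 (place 3431) and 3088431 (place 4269), and the middle part had 1 at 8773811 (place 4008). The site at 15766228 was numbered 114 in replicate 1 and 40 in replicate 2. Of these 7 isolated sites 2 were among the best 100 of the genome, as were 2.09% of all combined peaks. The others had places from 2031 to 4269. With 7 sites, chosen after values were seen, the shares cannot be compared.

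Close sites were somewhat fewer on V and on X than over the whole list. A neighbour within 1 kb was found for 73 V peaks, or 10.5%, and 9.02% of X peaks, against 13.1% of all combined peaks. The shares were 14.6% in the left part, 8.97% in the middle and 8.07% in the right. The median distance to the next midpoint was 14.2 kb on V (binomial 95% interval 11.9 to 16.6 kb), 14.7 kb on X and 8.75 to 11.7 kb on the other autosomes. The mean distance on V was 30.2 kb, far above its median, and on X it was 26.4 kb.

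Runs of at least 4 peaks with midpoints no more than 5 kb apart numbered 9 on V, against 14 on X and 17 to 29 on the other chromosomes. These counts depend on the number and density of peaks, and no correction was made for this. V had 692 combined peaks, X 665 and the other chromosomes 753 to 951. The longest run on V had 7 peaks between 10715780 and 10729842 in the middle part, with places from 1049 to 4583. The tightest run of 6 spanned 4.79 kb in the left part, from 5843467 to 5848251. Its best peak had place 1253, and its last peak, at 5847928, was the last of the whole combined list with place 4794. At the right end of the chromosome, 5 peaks stood between 20415486 and 20425069, the best of them at 20424812 with place 290. None of these 3 runs held a peak of the best 100.

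Nearly every site of V was found in both replicates, although the combined list comes from these replicates and the overlap is no independent check. Of the 692 peaks 661 overlapped a peak in both replicates by at least 1 bp (95.5%, Wilson 95% interval 93.7 to 96.8%), against 94.8% of all combined peaks. The remaining 31 overlapped replicate 2 alone, and 0 overlapped replicate 1 alone or neither. Both replicates were overlapped by 208 of 219 sites in the left part, 298 of 312 in the middle and 155 of 161 in the right. The best-placed site without a replicate 1 peak lay at 7730524 to 7730847 with place 2235 and number 1976 in replicate 2. The next were at 6095849 (place 2859) and 17870588 (place 3014). All of the first 100 V peaks overlapped both replicates.

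The replicate peaks at V sites lay close together and were ordered much alike. Among the 661 sites found in both, the midpoints of the replicate peaks lay a median of 22 bp apart (quartiles 8.5 and 50 bp), against 25 bp on the other chromosomes. The median was 20 bp in the left part and 23 bp in the middle and right parts. Spearman's rho of the replicate peak numbers over these 661 sites was 0.80, and it was between 0.79 and 0.80 in each part. On X it was 0.57 and on the other autosomes 0.77 to 0.82. These correlations are descriptions across sites of the same 2 immunoprecipitations, selected for agreement between them.

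The order was looser on the side of replicate 1. Of the 661 sites, 131 (19.8%, Wilson 95% interval 17.0 to 23.0%) had a replicate 1 peak numbered beyond 4794, the length of the combined list, and 47 (7.11%, 5.39 to 9.33%) had such a replicate 2 peak. Both were beyond it at 7 sites. A replicate 1 number beyond 10000 was found at 61 sites and a replicate 2 number beyond 10000 at 1. The shares over all combined peaks were 20.4% and 7.99%, so that V was close to the whole list. The isolated left site at 2877421 is an example, with number 14867 in replicate 1 and 3182 in replicate 2.

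**Figure D5:**
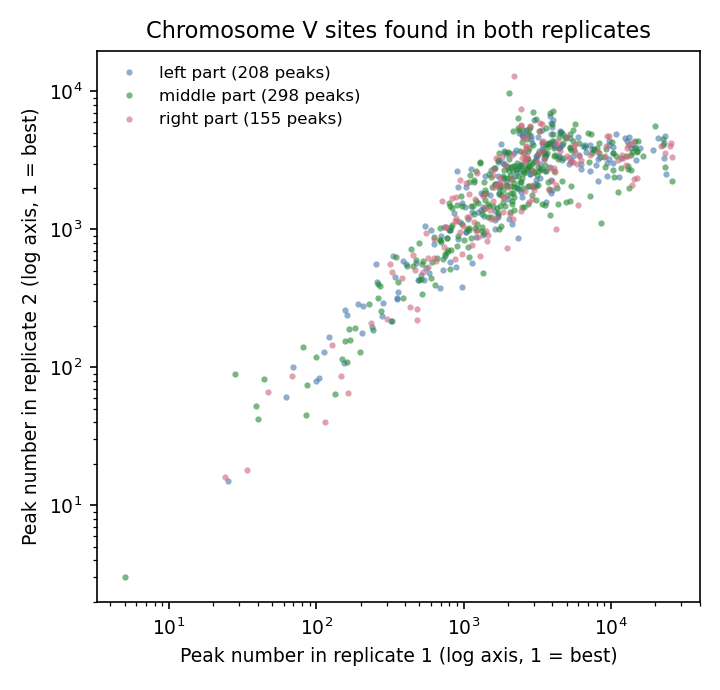
Peak number in replicate 1 (x axis) and replicate 2 (y axis) of the 661 chromosome V sites found in both, on logarithmic axes, coloured by part. The points follow a common diagonal at low numbers in all parts (rho = 0.80 over all), and at high numbers spread to the right, where 61 sites exceed 10000 in replicate 1 and 1 does in replicate 2.

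A smaller share of the replicate peaks on V, as on X, was found in the combined list than over all chromosomes. On V 13.5% of replicate 1 peaks overlapped a combined peak (Wilson 95% interval 12.6 to 14.5%) and 14.3% of replicate 2 peaks (13.3 to 15.2%), against 17.8% and 17.8% of all nuclear peaks of the 2 lists. On X the shares were 14.4% (13.4 to 15.4%) and 15.1% (14.1 to 16.1%), with intervals that overlap those of V. Of the replicate 1 peaks on V 36.7% overlapped replicate 2, against 38.6% on X and 41.8% over all. Of the replicate 2 peaks on V 36.1% overlapped replicate 1, against 37.1% on X and 39.4% over all. The share of replicate 1 peaks shared with replicate 2 was 37.7% in the left part, 41.8% in the middle and 28.2% in the right. It was 42.2% in the right parts of the other chromosomes together. In 2 other sparse parts, the left of II and the right of IV, it was 33.3% and 33.8%. Sparser peaks overlap less often by position alone, and the part of this was not tested. Peaks found in both replicates but absent from the combined list numbered 1156 in replicate 1 on V, which was 23.1% of its peaks there and 24.1% over all chromosomes.

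The width of V peaks was typical of the list. The common width of 324 bp was shared by 71.8% of V peaks and 71.8% of all combined peaks, and the rest were mostly narrower. The narrowest was 81 bp, at 14200159, and the widest 393 bp, at 5049362 with place 344. On X 89.6% had the common width. V peaks covered 198 kb in all. The first combined peak of V began at 8172 and the last ended at 20879643, 43.0 kb before the end of its extent.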

How the data were processed

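The authors deposited 3 peak lists, in WormBase WS220 per the file headers, whose source column names SPP and the irreproducible discovery rate. The sources used here give no aligner, version, threshold, use of input or rule behind the combined list. The scale of the deposited score is not stated. It has a ceiling, which 638 of the 692 V peaks reach, so it served only to rank peaks within a list, with ties ordered by peak number.

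Everything else was computed with Python 3.11.15, numpy 2.4.6, pandas 2.3.3 and scipy 1.17.1, and figures with matplotlib 3.10.9. A chromosome's extent runs to its last peak end over the 3 lists and may fall short of its length. Peaks were assigned to the 3 equal parts and to windows of 1 Mb by midpoint, and stretches to parts by their middle. An overlap is 1 bp or more. Where a combined peak overlapped several peaks of a replicate, the best-numbered was used for numbers and midpoints. This applied to 24 V peaks in replicate 1 and 58 in replicate 2. Neighbouring combined peaks could share a replicate peak. Intervals are Wilson 95% intervals of shares, ratios derived from them, and binomial intervals of medians. All cover counting error only and treat peaks as independent. Mitochondrial peaks were left out.

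Chromosome V, its parts and the measures were chosen with earlier results of these data known. Named were the 10 best V peaks, the best and last of each part, those bounding the 3 longest stretches, the widest, the best 3 of each kind missing a replicate, and the fullest and emptiest windows. Isolated peaks, runs, bare stretches and other sites were chosen after values were seen. Densities, overlaps and stretches planted in simulated data were recovered. The gene table at hand uses WBcel235, another build, so no site was given a gene or a sequence.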

Additional observations from a re-analysis of the deposited data

How the results depend on the processing

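The 3 density ratios of chromosome V kept their side of 1 under each alternative run. The density ratio to the other chromosomes, 0.640, was 0.701 among the best 500 peaks and ranged from 0.657 to 0.705 with either replicate alone. Leaving out single other chromosomes gave 0.593 to 0.683. The middle to outer ratio, 1.64, was 1.32 among the best 500 peaks, where its counting interval of 0.841 to 2.07 included 1, and 2.05 with the middle 50% of the extent as the centre. It was 1.62 to 1.72 with either replicate alone. The left to right ratio, 1.36, was 1.14 among the best 2397 peaks, with an interval of 0.854 to 1.53 that included 1, and 1.61 among the best 500 (0.902 to 2.88). Stretches numbered 117 at a length of 50 kb and 19 at 150 kb, by construction, and 40 to 42 with either replicate alone. The share of V peaks found in both replicates, 95.5%, fell to 91.5% when 50% of the peak had to be covered, 86.8% with midpoints within 100 bp, and 71.0% against the top replicate peaks only, each a stricter rule. The median place, 2380 against 2399 on the other chromosomes, did not keep its side: it was 2296.5 in replicate 2 alone and 2571.5 in replicate 1 alone, where V was placed later than the other chromosomes (2362.5). The cause was not tested. No paired analysis was possible because the inputs, which share replicate numbers with the immunoprecipitations, enter with no values here. Depth is unknown, so weak replicate peaks cannot be weighed by reads.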
